A study of Caenorhabditis elegans with 12 samples.

Results

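Worms of the strain TU3401 that were fed *rpia-1* RNAi bacteria from the embryo on (TU3401 *rpia-1* (RNAi) WL, where WL stands for whole life) were compared with TU3401 worms fed bacteria carrying the empty vector (TU3401 EV). A gene was taken when its TPM averaged 1 or more across the 6 libraries, which held for 13921 of the 46904 genes in the deposited table, 12883 of them protein-coding. TPM is a transcript level per unit of transcript length, scaled to a nearly fixed sum in each library.

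Each group held 3 libraries of whole worms, and each library was made from at least 500 worms grown at 20 °C on *E. coli* HT115. Both groups carried the integrated transgene *uIs69*, which holds *myo-2p*::mCherry, a red marker in the muscle of the pharynx, and *unc-119p*::*sid-1*, which puts the double-stranded RNA channel SID-1 into neurons. The study describes the strain as hypersensitive to knockdown in neurons. The labels do not give the state of the worm's own *sid-1*, so whether RNAi also acted in other tissues cannot be read from them. The sample characteristics and the design text place the TU3401 worms at day 0 of adulthood, the column names hold L4, the last larval stage, and the extraction protocol speaks of worms kept until day 5 of adulthood. The samples were collected independently. The 6 other libraries of the study came from the wild-type strain N2, labelled day 5.

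*rpia-1* encodes ribose-5-phosphate isomerase, which interconverts ribulose-5-phosphate and ribose-5-phosphate in the non-oxidative arm of the pentose phosphate pathway. The pathway makes NADPH in its oxidative arm and ribose phosphate for nucleotides. In *C. elegans* a feeding-induced knockdown spreads between cells through SID-1, and neurons of the wild type take up little double-stranded RNA. The change from larva to adult runs through a last molt, in which collagens of the outer cuticle and proteins of the lining of the pharynx are made in ordered waves, and in hermaphrodites the germline switches from sperm to oocytes over the same hours. Small differences in age between samples at this time can therefore move many transcripts.

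The libraries differed in composition within the groups. Summed TPM was 1.21 times summed FPKM (a level per unit of length and of library size) in EV replicate 3 and up to 1.77 times in the others, ribosomal RNA held 0.381% of the summed TPM in EV replicate 3, 0.905% in WL replicate 3 and 1.16% to 1.76% in the others, and 20557 to 22945 genes were above 0. Genes of 301 to 500 nt of exon length stood at a median of 0.23 (log2) above their mean over the 6 libraries in EV replicate 3 and at −0.18 in WL replicate 2. Read numbers are not given with these values, so the depth in reads is unknown. EV replicate 3 and all 3 WL libraries also stood apart by stage-dependent genes, as described below with values with and without them.

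The targeted gene *rpia-1* (WBGene00015101, chromosome III of WBcel235 from 7123128 to 7124335) was at 107.4, 107.3 and 115.3 TPM in EV replicates 1 to 3 and at 82.0, 88.5 and 106.5 TPM in WL replicates 1 to 3. All 3 WL libraries lay below all 3 EV libraries, but WL replicate 3 came within 1 TPM of EV replicate 2. The log2 fold change was −0.26 (standard error 0.12, adjusted p = 1.00 from limma, unadjusted p = 0.055). An exact permutation test gave a two-sided p of 0.10, the smallest that 3 against 3 samples allow. Fewer cells with the transcript and less transcript per cell cannot be told apart in RNA of whole worms.

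**Figure D1:**
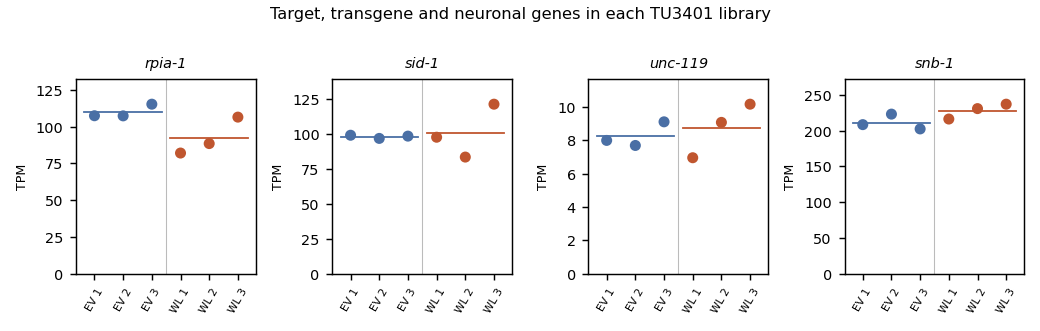
TPM (vertical axes, linear, from 0) of the target *rpia-1*, of *sid-1* and *unc-119*, whose channel and promoter the transgene uses, and of the neuronal gene *snb-1* in the 3 EV (blue) and 3 WL (orange) libraries of TU3401, with the group means as lines. The WL points of *rpia-1* lie below the EV points, and those of the other 3 genes overlap with them.

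The channel gene *sid-1* stood at 98.8, 96.6 and 98.2 TPM in EV and at 97.4, 83.2 and 121 TPM in WL, so the groups overlapped (log2 0.02, standard error 0.14). Over the 6 TU3401 libraries its mean was 99.2 ± 12.2 TPM (SD, n = 6), against 66.8 ± 7.74 TPM (SD, n = 6) in the 6 N2 libraries (exact permutation test, two-sided p = 0.0022), and strain and labelled age cannot be told apart in this difference. The values do not separate transcripts of the transgene from those of the gene itself. *unc-119*, a gene expressed throughout the nervous system whose promoter drives the transgene, was at 7.99, 7.69 and 9.10 TPM in EV and 6.95, 9.07 and 10.2 TPM in WL, with overlapping groups.

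Across all genes, 0 of 13921 (0%) passed an adjusted p under 0.05 from limma, and each adjusted p was 1.00 to 2 decimals. At an unadjusted p under 0.05 there were 33 genes with a higher level in WL (0.237%) and 131 with a lower level (0.941%). The 3 WL libraries lay above all 3 EV libraries for 189 genes (1.36%) and below them for 282 genes (2.03%). These shares are the background against which the counts of each gene list stand below. Of the 164 genes with an unadjusted p under 0.05, 120 were protein-coding and 30 had a mean of at least 10 TPM. Their median level was 3.19 TPM, against 14.7 TPM for all genes tested. In 89 of the 131 lower genes WL replicate 2 was the lowest library.

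No gene of the pan-neuronal list passed the test. Summed levels of a list are given over all its genes in the table, those under the minimum included, while counts and medians cover the genes tested. The 31 pan-neuronal genes summed to 591, 606 and 588 TPM in EV and to 591, 609 and 665 TPM in WL. Of the 30 tested, 15 were higher and 15 lower, with a median log2 fold change of −0.01, beside 0.00 for all genes tested, and 0 had an unadjusted p under 0.05. The synaptobrevin gene *snb-1*, which encodes a protein of synaptic vesicles, was at 208.5, 223.3 and 202.5 TPM in EV and 216, 231 and 237 TPM in WL, with overlapping groups. Of 20 genes of transmitter identity, not all of them particular to a single transmitter, 8 were above the minimum. *cat-4*, a gene for making the cofactor of dopamine and serotonin synthesis, was among them, with 75.2, 74.0 and 88.9 TPM in EV and 51.3, 54.3 and 94.6 TPM in WL. Among those below the minimum were *eat-4*, the vesicular transporter of glutamatergic neurons, with a mean of 0.487 TPM in EV and 0.572 TPM in WL, and *unc-17*, that of cholinergic neurons, with means of 0.761 and 0.840 TPM.

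The other enzymes of the pentose phosphate pathway showed no difference beyond the spread of the libraries. The summed level of the 7 genes of the pathway, *rpia-1* included, was 1077, 1109 and 1136 TPM in EV and 990.4, 1106 and 1236 TPM in WL, and 4 of the 7 were higher and 3 lower, with 0 at an unadjusted p under 0.05. *gspd-1*, the glucose-6-phosphate dehydrogenase that opens the oxidative arm, was at 73.1, 78.7 and 78.1 TPM in EV and 65.6, 77.3 and 85.8 TPM in WL. The transketolase gene *tkt-1* was at 337, 342 and 361 TPM in EV and 311, 331 and 399 TPM in WL, and the transaldolase gene *tald-1* at 243, 237 and 249.5 TPM in EV and 232, 252 and 288 TPM in WL. For *gspd-1*, *tkt-1* and *tald-1* alike, WL replicate 1 was the lowest and WL replicate 3 the highest of the 6 libraries. Among 20 genes for NADPH and redox enzymes 13 were higher and 7 lower (median 0.01), and among 11 genes that use ribose phosphate 4 were higher and 7 lower (median −0.01), each list with 0 at an unadjusted p under 0.05.

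The genes of the molt separated the libraries within the groups more than between them. Collagen genes build the cuticle, and each molt needs a new set. The summed level of the 176 collagen genes in the table was 30025, 26904 and 37437 TPM in EV and 29114, 18935 and 49389 TPM in WL, so that WL replicates 2 and 3 enclosed all the EV libraries. The highest and the lowest library differed 1.39-fold in EV and 2.61-fold in WL. Of the 130 tested, 31 were higher and 99 lower in WL, with a median log2 fold change of −0.15 and 0 at an unadjusted p under 0.05. WL replicate 2 was the lowest of the 6 libraries for 110 of them, and without it all but 8 of the 130 were higher (median 0.21), 7 of them at an unadjusted p under 0.05. Without WL replicate 3 107 were lower (median −0.40) and without WL replicate 1 96 were lower (median −0.34), each time 23 at an unadjusted p under 0.05. Without EV replicate 3 66 were lower (median −0.00). Over all 13921 genes tested, 487 were lower at this p without WL replicate 3 and 325 without WL replicate 1. Without WL replicate 2, 107 of all genes were higher at this p.

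Collagens of different times were highest in different WL libraries. The furrow collagens, which pattern the ridges of the cuticle and are made early in each molt, had a summed level of 31.4, 24.4 and 41.3 TPM in EV and 78.9, 21.5 and 29.4 TPM in WL. All 6 were highest in WL replicate 1. Among them, *dpy-7* was at 3.91, 2.86 and 6.07 TPM in EV and 12.1, 3.58 and 4.75 TPM in WL. The adult collagen *col-19* went another way, with 648, 602 and 826 TPM in EV and 578, 465 and 1144 TPM in WL. The collagen gene of the highest mean level, *col-124*, was at 1777, 1678 and 2130 TPM in EV and 1538, 1284 and 3236 TPM in WL, and like *col-19* it was highest in WL replicate 3. Over all 130 collagens, 46 were highest in WL replicate 1 and 70 in WL replicate 3.

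Many further genes of the last molt were highest in WL replicate 1, and others in WL replicate 3. Of 30 molting factors tested, 17 were highest in WL replicate 1 and 11 in WL replicate 3. Among the latter, *nas-37* was at 6.90, 4.94 and 10.3 TPM in EV and 8.25, 5.62 and 12.2 TPM in WL. *bli-2*, a collagen of the struts of the adult cuticle, was at 18.1, 17.5 and 37.6 TPM in EV and 57.4, 13.5 and 17.4 TPM in WL. *mlt-10*, which is needed for molting, was at 11.6, 11.5 and 16.5 TPM in EV and 27.3, 7.12 and 8.33 TPM in WL. *lin-42*, the worm's relative of the clock gene Period, whose transcript cycles with the molts, was at 18.5, 18.4 and 20.9 TPM in EV and 31.3, 10.2 and 12.5 TPM in WL. In *mlt-10* and *lin-42* the EV libraries thus lay between WL replicate 1 above and WL replicates 2 and 3 below. The hedgehog-related genes, secreted proteins of the skin that cycle with the molts (61 genes), summed to 553, 484 and 643 TPM in EV and 627, 276 and 694 TPM in WL, with 12 of 30 higher (median −0.07). WL replicate 2 was lowest for 26 of these 30, for 25 of 30 molting factors and for 9 of 10 cuticlins.

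**Figure D2:**
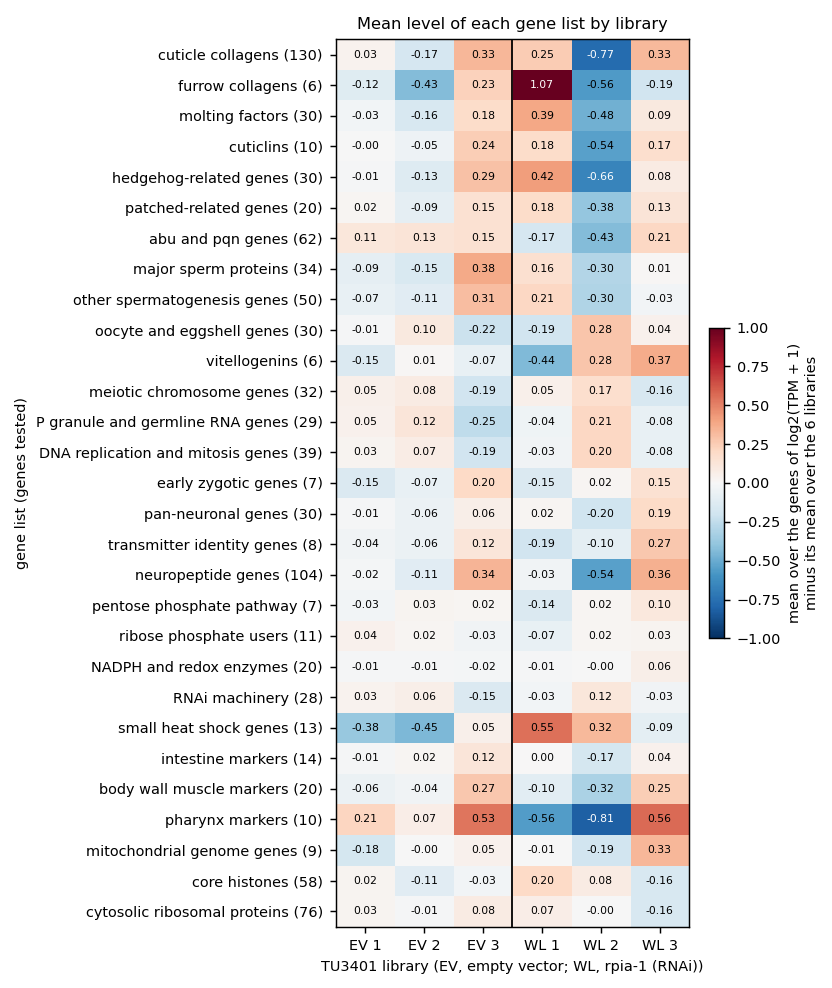
Mean level of each gene list (rows, with the number of genes tested) in the 3 EV and 3 WL libraries (columns), as the mean over the genes of log2(TPM + 1) after subtraction of each gene's mean over the 6 libraries, on a colour scale from −1 to 1. WL replicate 2 is lowest for collagens (−0.77) and pharynx markers (−0.81), WL replicate 1 is highest for furrow collagens (1.07), and for these 3 lists the EV libraries lie closer together than the WL libraries.

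Germline genes also differed by library. The genes for major sperm proteins, the cytoskeletal proteins with which worm sperm crawl (35 genes), summed to 6841, 6790 and 9594 TPM in EV and 8015, 6094 and 7496 TPM in WL. EV replicate 3 was the highest library for 29 of 34 and WL replicate 2 the lowest for 30 of 34. The 56 other spermatogenesis genes, of which 50 were tested, were also highest in EV replicate 3 and lowest in WL replicate 2, with summed levels of 2830, 2736 and 3975 TPM in EV and 3317, 2423 and 3030 TPM in WL. Medians of the log2 fold change were −0.10 and −0.09 for these lists, and −0.02 for each after the trend with exon length was removed. Copies of the sperm protein genes are nearly identical, and how reads shared between copies were counted is not given, so levels of single copies are uncertain. This holds for *msp-52*, annotated as a pseudogene, the 1 gene of the list at an unadjusted p under 0.05, which was higher in WL (93.0, 88.5 and 63.0 TPM in EV, and 109, 117 and 104.1 TPM in WL).

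In EV replicate 3 and WL replicate 2 oocyte genes stood opposite to the sperm genes. The 30 genes for oocytes and the eggshell summed to 10027, 10980 and 9086 TPM in EV and 8749, 12371 and 10926 TPM in WL. WL replicate 2 was the highest library for 28 of them, and EV replicate 3 the lowest for 23. All 30 were slightly higher in WL (median 0.09), but 0 of the 30 were with FPKM (median −0.08, where the median of all genes moved to −0.14), and 0 had an unadjusted p under 0.05. Without EV replicate 3, 12 of 30 were higher, and without WL replicate 2, 2 of 30. The yolk receptor gene *rme-2*, which oocytes use to take up yolk, was at 262.5, 275 and 223 TPM in EV and 227, 315 and 262.5 TPM in WL, with overlapping groups. The 39 genes for DNA replication and mitosis, which in adult worms are used in the germline, had 37 higher (median 0.06) with TPM. With FPKM their median was −0.10, beside −0.14 for all genes. WL replicate 2 was highest for 37 of the 39.

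Yolk protein genes showed an order of the WL libraries. The intestine of the adult hermaphrodite makes yolk proteins from the last molt on, and the 6 vitellogenin genes summed to 9860, 10967 and 10287 TPM in EV and 8293, 12799 and 13889 TPM in WL. For all 6 genes WL replicate 1 was the lowest and WL replicate 3 the highest of the 6 libraries. *vit-2* was at 2737, 3065 and 2810 TPM in EV and 2398, 3378 and 3820 TPM in WL, and *vit-6* at 2760, 3002 and 2819 TPM in EV and 2413, 3325 and 3761 TPM in WL. Several vitellogenin genes are nearly identical to one another. All 6 were higher in WL on average (median 0.13, and −0.04 with FPKM, where the median of all genes was −0.14). Without WL replicate 1 the median was 0.38 and all 6 had an unadjusted p under 0.05. In that fit 82 of all 13921 genes tested were higher at this p. Without WL replicate 3 the median was −0.00.

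**Figure D3:**
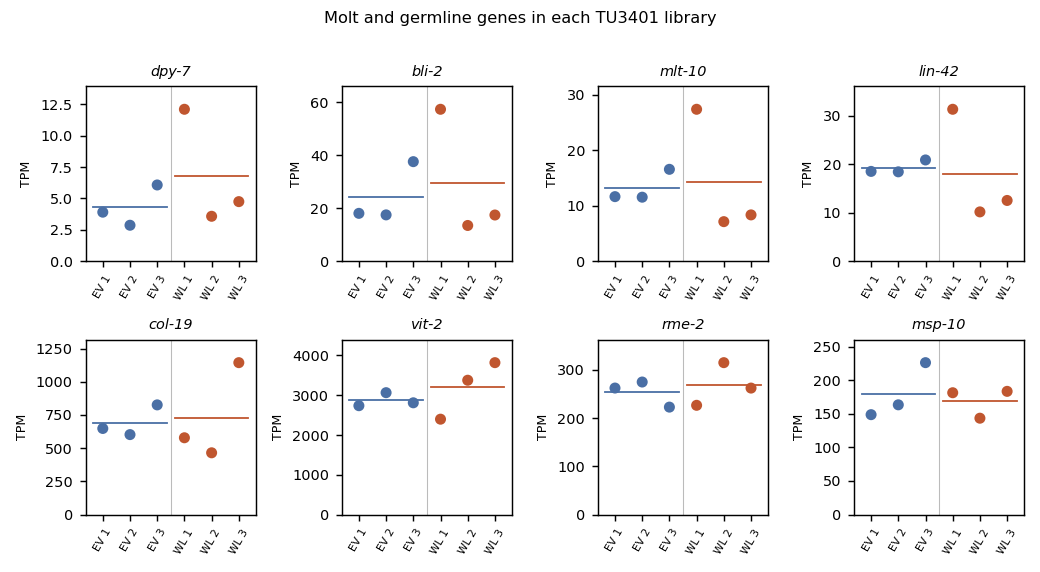
TPM (vertical axes, linear, from 0) of molt genes (*dpy-7*, *bli-2*, *mlt-10*, *lin-42*, *col-19*), the yolk protein gene *vit-2*, the oocyte gene *rme-2* and the sperm gene *msp-10* in the 3 EV (blue) and 3 WL (orange) libraries of TU3401, with the group means as lines. WL replicate 1 is highest for *dpy-7* (12.1 TPM) and lowest for *vit-2* (2398 TPM), and for *mlt-10*, *lin-42*, *col-19* and *vit-2* the WL points lie on both sides of all EV points.

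The WL libraries differed more from one another than the EV libraries did. Of all genes tested, 433 (3.11%) spanned at least 2-fold between the EV libraries and 1501 (10.8%) between the WL libraries, on the log2(TPM + 1) scale. For the 130 collagens the shares were 4.62% in EV and 88.5% in WL, for the hedgehog-related genes 13.3% and 73.3%, and for the neuropeptide genes 7.69% and 54.8%. Germline lists together spanned 2-fold in 3 and 5 of 227 genes. The WL libraries held 65.6% of the sum of squares within the groups, and 67.9% of the genes had a larger SD in WL than in EV. Between any pair of libraries of different groups, 158 to 1029 genes lay at least 2-fold apart, and between pairs of the same group 91 to 981.

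How much of the variation lay along the knockdown was measured as a share of the sum of squares of log2(TPM + 1) over the 6 libraries. Since 6 libraries have 5 independent directions, a direction holds 20% on average. The difference between the groups held 13.1% over all genes, 9.19% over the 282 genes of the molt lists, 9.32% over the 227 genes of the germline lists and 13.4% over the 13412 genes in neither. The share between the groups over all genes was 26.99% without WL replicate 3 and 20.7% without WL replicate 1, where fewer libraries leave fewer directions. Principal component 1 held 47.4%, with WL replicate 2 at one end and EV replicate 3 and WL replicate 3 at the other, and component 2 held 22.8%, with WL replicate 1 at one end and WL replicate 3 at the other.

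Scores from stage genes lay along these directions. The collagen score, the mean of the centred log2(TPM + 1) over the collagens, gave a direction that held 43.6% of the sum of squares of all genes, and the same score over the major sperm proteins held 39.0%. Any pair of directions out of 5 would hold 40% on average, and both scores together held 57.4% over all genes and 56.6% over the genes in no molt or germline list. Of the collagen score itself, 2.66% lay between the groups, and of the sperm score 3.96%. The direction between the groups, without its parts along both scores, held 10.8% of the full sum of squares. The total still included what lay along the scores, so 10.8% is no share of what they left. A score of exon length, short against long genes, held 40.7%, so that stage, library composition and any other property that differs between these libraries cannot be told apart along these directions. With the length trend removed, the collagen and sperm scores together held 54.7%, the exon length score 37.4% and the groups 13.6%, so that this correction did not separate the scores.

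**Figure D4:**
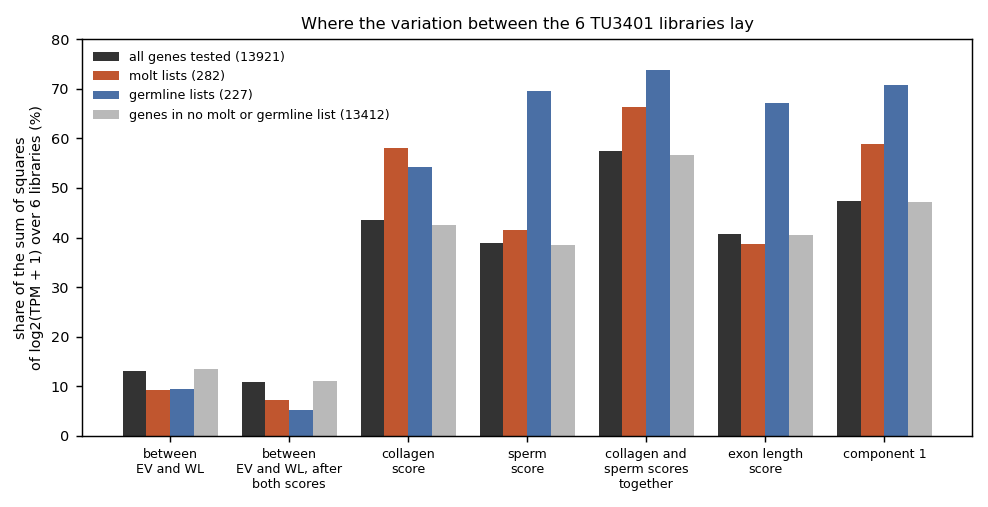
Share of the sum of squares of log2(TPM + 1) over the 6 libraries (vertical axis, in percent, from 0), for all genes and for 3 sets of them (bars). Shown are the difference between EV and WL, with and without its parts along the collagen and sperm scores, each score and component 1. All are shares of the full sum of squares. The groups hold 13.1% of all genes' sum of squares and both scores together 57.4%.

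Many genes for the cuticle of the pharynx, the feeding organ, were lower in WL on average. The abu and pqn genes encode proteins with repeats rich in glutamine and asparagine, and many of them line the pharynx, where the cuticle is remade at each molt. Of 62 tested, 45 were lower and 17 higher (median −0.14), 9 had an unadjusted p under 0.05 with a lower level (background 0.941%), and 8 were lower without overlap (background 2.03%). The 77 in the table summed to 2467, 2591 and 2409 TPM in EV and 2260, 2309 and 2542 TPM in WL, so that the groups overlapped. WL replicate 2 was the lowest library for 37 of the 62 and the highest for 12. *abu-14* (chromosome II from 9225186 to 9227214) was at 48.6, 48.6 and 45.6 TPM in EV and 27.8, 15.7 and 35.9 TPM in WL, a log2 fold change of −0.90 (standard error 0.25, unadjusted p = 0.0064, adjusted p = 1.00 from limma). *abu-11* was at 25.02, 28.1 and 24.02 TPM in EV and 13.6, 9.03 and 22.5 TPM in WL, and *abu-15* at 20.2, 22.5 and 18.4 TPM in EV and 12.2, 6.63 and 16.5 TPM in WL. These 3 genes had the smallest p of the list. In each of them the EV libraries lay close together, WL replicate 2 was lowest and WL replicate 3 came nearest to EV.

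The same order of libraries was seen in the idp and appg genes, families that RefSeq names and that encode disordered proteins of the pharyngeal cuticle. They were chosen as a list after their values were seen, and their counts are given as a description. Of 33 such genes, 24 were tested, of which 23 were lower and 1 was higher (median −0.55). Of these, 10 were lower at an unadjusted p under 0.05 (background 0.941%) and 8 lower without overlap (background 2.03%). *idpc-6* (T06E4.9 in the table) was at 20.2, 23.1 and 18.4 TPM in EV and 11.7, 6.79 and 17.1 TPM in WL. *idpc-4* (T06E4.14) was at 28.2, 29.6 and 24.4 TPM in EV and 12.9, 8.66 and 26.4 TPM in WL. WL replicate 2 was the lowest library for 21 of the 24. Of the 131 lower genes at an unadjusted p under 0.05, 21 were abu, pqn, idp, appg or phat genes. Among all 13921 genes tested, 62 were abu or pqn genes and 24 were idp or appg genes. Part of this set was chosen after its values were seen, so the 21 is a description. Related members of these families share stretches of sequence, so reads may be split between them.

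Markers of pharyngeal muscle and glands had a lower summed level in WL replicates 1 and 2 and not in WL replicate 3. The 12 of the list summed to 131, 119.3 and 187 TPM in EV and 68.4, 61.4 and 193 TPM in WL, and all 10 tested were lower on average (median −0.62). *myo-2*, a myosin of pharyngeal muscle whose promoter drives the mCherry marker, was at 16.8, 14.1 and 20.7 TPM in EV and 6.78, 5.34 and 24.2 TPM in WL. *phat-2*, a gene of the pharyngeal glands, was at 2.93, 3.09 and 2.75 TPM in EV and 1.39, 1.153 and 2.21 TPM in WL, lower without overlap (log2 −0.62, standard error 0.21, unadjusted p = 0.016, adjusted p = 1.00 from limma). A further gland gene, *phat-4*, was at 18.5, 16.4 and 19.2 TPM in EV and 6.37, 4.77 and 17.04 TPM in WL. Without WL replicate 3, 9 of the 10 markers and 25 of the 62 abu and pqn genes had an unadjusted p under 0.05 with a lower level, and without WL replicate 2 the counts were 1 and 3. Over all 13921 genes tested, 487 were lower at this p without WL replicate 3, and 76 without WL replicate 2. The medians without WL replicate 2 were −0.31 for the markers, −0.02 for the abu and pqn genes and −0.33 for the idp and appg genes.

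Stage scores were then added to the fit. With the collagen score as a covariate, 158 of the 164 genes at an unadjusted p under 0.05 kept it, with the sperm score 132 and with both 139, and all 164 kept their direction, while 0 genes passed an adjusted p under 0.05. These genes were chosen by the same p, so the counts are a description. Of the collagen score 2.66% and of the sperm score 3.96% lay between the groups. Covariates that lie mostly within the groups leave little room to move the fold change, so these fits are no test of stage. Over all 62 abu and pqn genes tested, the median log2 fold change went from −0.14 to −0.07 with the collagen score and to −0.06 with the sperm score and with both, and 20 were higher and 42 lower in each of these fits. Over the 24 idp and appg genes it was −0.55 as reported, −0.49 with the collagen score and −0.52 with both, and over the 10 pharynx markers −0.62, −0.49 and −0.52. The median of the oocyte genes went from 0.09 to 0.04 with the collagen score. The scores follow the outer cuticle and sperm, and a score that follows the pharynx itself was not used. The pharynx markers had 26.9% of their score between the groups. The part of stage in the lower level of the pharyngeal genes was not tested.

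Several heat shock genes were higher in WL replicates 1 and 2. Of 13 small and inducible heat shock genes, 10 were higher and 3 lower (median 0.62), and 4 had an unadjusted p under 0.05 with a higher level (background 0.237%). The 4 were *hsp-16.1*, *hsp-16.11*, F44E5.4 and F44E5.5. They form pairs of near-identical neighbours and are not 4 separate signals. *hsp-16.1* (chromosome V from 9087293 to 9087782), a chaperone made under heat and other stress, was at 2.31, 2.78 and 3.47 TPM in EV and 8.98, 7.26 and 4.48 TPM in WL, higher without overlap (log2 1.01, standard error 0.25, unadjusted p = 0.0033, adjusted p = 1.00 from limma). Its near-identical neighbour *hsp-16.11* followed it, and reads of this pair may be shared. The hsp70 gene F44E5.4 was at 2.87, 2.67 and 2.65 TPM in EV and 14.1, 10.7 and 2.34 TPM in WL, and its near-identical neighbour F44E5.5 again followed. *hsp-70* was at 1.117, 0.639 and 0.701 TPM in EV and 4.39, 4.29 and 0.557 TPM in WL. WL replicate 3 was thus below each EV library for the hsp70 genes and above each, by a small margin, for *hsp-16.1*.

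*hsp-12.2*, a small heat shock gene not known for induction by heat, was at 57.4, 51.6 and 84.2 TPM in EV and 37.6, 31.4 and 76.9 TPM in WL. *hsp-12.3* was lower in WL without overlap, by a small margin, at 3.62, 3.29 and 4.34 TPM in EV and 3.28, 1.52 and 2.83 TPM in WL. The summed level of the list, to which *hsp-12.2* adds a large part, was 86.4, 79.5 and 132 TPM in EV and 120.5, 97.3 and 118 TPM in WL, so that the groups overlapped. The list's median stayed between 0.34 and 0.93 when each library was left out in turn.

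**Figure D5:**
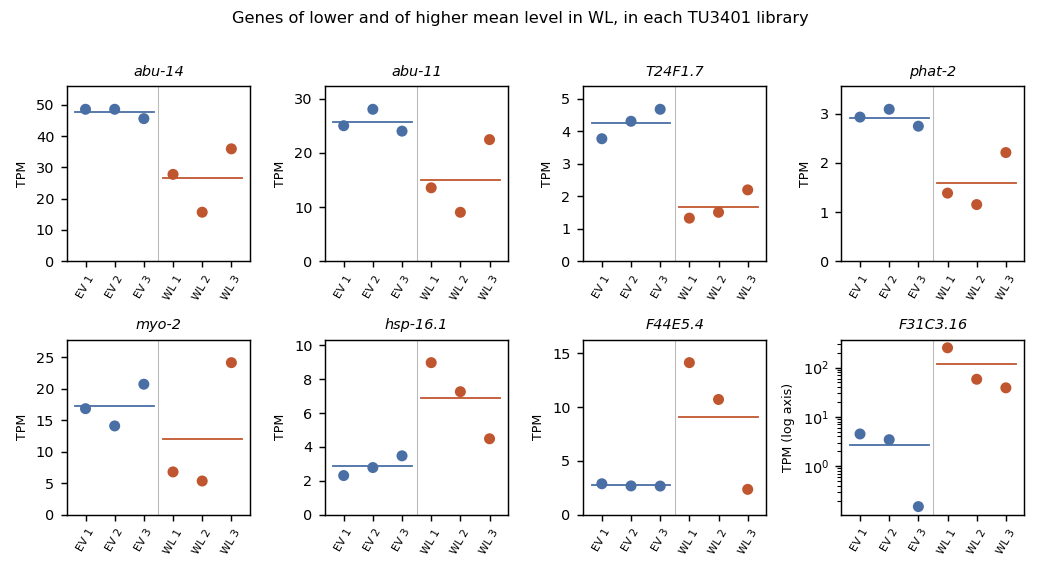
TPM of the pharyngeal cuticle genes *abu-14* and *abu-11*, of T24F1.7, of the pharynx markers *phat-2* and *myo-2*, of the heat shock genes *hsp-16.1* and F44E5.4 and of the noncoding RNA F31C3.16 in the 3 EV (blue) and 3 WL (orange) libraries of TU3401, with the group means as lines. Axes are linear from 0 except for F31C3.16, which has a log axis. WL replicate 3 lies near or beyond EV for *myo-2* (24.2 TPM) and F44E5.4 (2.34 TPM), and apart from EV for F31C3.16 (38.8 TPM).

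The gene with the smallest p was F31C3.16, a noncoding RNA on the reverse strand at the ribosomal DNA end of chromosome I (from 15060861 to 15061159), opposite a pseudogene of ribosomal RNA, *rrn-3.56*. It was at 4.49, 3.44 and 0.151 TPM in EV and 252, 57.95 and 38.8 TPM in WL, higher without overlap (log2 4.79, standard error 0.74, unadjusted p = 1.3e-04, adjusted p = 1.00 from limma). F31C3.15, which lies opposite the ribosomal RNA gene *rrn-1.1*, was at 4.63, 0.733 and 0.263 TPM in EV and 6.74, 6.50 and 12.5 TPM in WL. The groups overlapped for further noncoding genes of this end, with F31C3.13 at 17.1, 6.69 and 0.348 TPM in EV and 11.1, 835 and 414 TPM in WL, and F31C3.14 at 254, 105 and 1.21 TPM in EV and 355, 53.7 and 45.97 TPM in WL.

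Ribosomal RNA itself moved by library, with *rrn-1.1* at 4034, 2910 and 828 TPM in EV and 4750, 4900 and 2236 TPM in WL. EV replicate 3, lowest in ribosomal RNA, was also the lowest library for each of the 4 noncoding genes. The kit keeps the strand, but whether counting used it is not given, and the repeats of ribosomal DNA cannot be told apart by short reads, so the levels of these genes are uncertain. The part of ribosomal RNA content in them was not tested.

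The other genes with the largest higher levels in WL were at low levels, among them *nspe-2*, *nduo-3*, R11A5.6, Y39G10AL.1, C25F9.12 and the piRNA 21ur-14803, all below 5 TPM in each library. *nspe-1*, a short nematode-specific peptide gene, was at 4.19, 3.52 and 9.48 TPM in EV and 9.64, 11.6 and 16.06 TPM in WL. *cgef-1*, which encodes an exchange factor for the small GTPase CDC-42, was at 3.66, 7.001 and 4.37 TPM in EV and 7.62, 7.23 and 12.2 TPM in WL. In both genes the groups lay apart by a small margin.

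Most of the genes with the largest lower levels were short genes of unknown role. T24F1.7 (chromosome II from 11312523 to 11313346) was at 3.77, 4.31 and 4.68 TPM in EV and 1.33, 1.51 and 2.197 TPM in WL, so that the groups did not overlap (log2 −0.98, standard error 0.20, unadjusted p = 9.1e-04, adjusted p = 1.00 from limma). F55H2.8 was at 1.77, 3.81 and 1.21 TPM in EV and 0.960, 0.111 and 0.0445 TPM in WL. The nematode-specific peptide genes *nspb-2* and *nspb-3*, with near-identical copies, were at 8.42, 4.38 and 8.94 and at 5.31, 6.49 and 11.6 TPM in EV, and at 2.74, 1.103 and 4.34 and at 4.15, 2.39 and 3.88 TPM in WL. T25E4.1, R12A1.3 and R02F11.1 shared the order of the pharyngeal genes, with WL replicate 2 lowest and WL replicate 3 nearest to EV. The lower genes at an unadjusted p under 0.05 had a median exon length of 618 nt, against 1282 nt for all genes tested. Short genes as a class varied between libraries with exon length, and with that trend removed 150 of the 164 genes kept an unadjusted p under 0.05. These genes were chosen by the same p. By class of exon length the median log2 fold change ran only from −0.07 to 0.03, so removing the trend could move them little. The 150 is therefore a description.

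At higher levels, *fln-1*, the filamin of the contractile gonad and spermatheca, was at 163, 156 and 141 TPM in EV and 116, 106 and 131 TPM in WL (log2 −0.38, standard error 0.11, unadjusted p = 0.0080, adjusted p = 1.00 from limma). It was the gene of the highest level among the 131 lower ones and was chosen after its values were seen. The WL libraries lay below the EV libraries without overlap. With both stage scores in the fit the fold change was −0.38, but these scores lay mostly within the groups and could move it little.

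Neuropeptide genes were lower on average, and the direction turned when WL replicate 2 or EV replicate 3 was left out. Of those tested, 77 were lower and 27 higher (median −0.11), with 5 at an unadjusted p under 0.05 (background 0.941%) and 4 lower without overlap (background 2.03%). The summed level of the 146 neuropeptide genes in the table was 1913, 1759 and 2515 TPM in EV and 1949, 1372 and 2632 TPM in WL, and WL replicate 2 was the lowest library for 76 of those tested. Without WL replicate 2, 72 were higher (median 0.14), without EV replicate 3, 59 were higher (median 0.03), and without WL replicate 3, 95 were lower (median −0.38). The 5 genes were *nlp-64*, *nlp-68*, *nlp-37*, *nlp-79* and *flp-2*, all below 5 TPM in each library. *nlp-37* was at 4.29, 3.80 and 4.26 TPM in EV and 2.30, 0.876 and 3.20 TPM in WL, and *nlp-64* at 1.46, 1.69 and 2.83 TPM in EV and 0.476, 0.853 and 0.575 TPM in WL. Many neuropeptide precursors are short, and with the length trend removed the median of the list was −0.05.

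Other tissues and basic machinery moved with single libraries too. Body wall muscle markers summed to 7605, 7605 and 9336 TPM in EV and 7086, 6350 and 9125 TPM in WL, with 18 of 20 lower (median −0.13) and WL replicate 2 lowest for 18. Intestine markers had 11 of 14 lower (median −0.06). Cytosolic ribosomal protein genes summed to 234732, 230579 and 237818 TPM in EV and 241512, 233233 and 207775 TPM in WL, and WL replicate 3 was the lowest library for 69 of 76. Their median was −0.03 with TPM, 0.01 with median-ratio scaling and 0.03 with the length trend removed. The sign of this median turned between these fits, in which the medians of all genes moved as well (0.00, 0.04 and 0.03).

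Core histone genes, whose transcripts mostly lack a poly(A) tail, had 41 of 58 higher (median 0.09), with 0 at an unadjusted p under 0.05. With FPKM their median was −0.06, where the median of all genes moved to −0.14. The histone H2B gene *his-58* was at 12.4, 10.0 and 7.79 TPM in EV and 14.8, 14.8 and 11.1 TPM in WL, and it has near-identical copies. Genes of the RNAi machinery had 22 of 28 higher (median 0.05, and −0.12 with FPKM, beside −0.14 for all genes), again with 0 at an unadjusted p under 0.05. *dot-1.2*, a relative of the histone methyltransferase DOT1 (means of 0.0288 TPM in EV and 0.116 TPM in WL), *gmd-2* of the fucose pathway (0.175 and 0.0201 TPM) and *scl-14* (0.0919 and 0.00587 TPM) were below the minimum and were not tested.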

How the data were processed

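The deposited FPKM values and the values labelled TPM were made by the authors, and the submitters' processing notes name HISAT2 2.2.1, featureCounts 1.6.2, Trimmomatic 0.36, FastQC 0.11.9 and MultiQC 1.12, without saying how each was set. Build, annotation and strand setting are not given in the sources used here. The TPM were taken as a linear signal as deposited, since they sum to slightly more than TPM should. Depth in reads is unknown. Names, coordinates and exon lengths came from Ensembl release 115 of WBcel235 (46817 of 46904 genes found).

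Genes averaging 1 TPM or more across the 6 TU3401 libraries were fitted by limma 3.58.1 (R 4.3.3) on log2(TPM + 1), with moderated variances that followed the mean level. An adjusted p (Benjamini-Hochberg) under 0.05 passed. Fold changes on this scale understate those of low genes. The fit was tested on simulated data. Lists were described by counts and medians, with no test. Named are the target and transgene genes, the 12 genes with the largest change in each direction at an unadjusted p under 0.05 without overlap, up to 3 per list with the smallest p, and markers chosen for their role. The members and lists were chosen with earlier results of these data known, and the idp, appg, phat-4, *fln-1*, *col-124* and further ribosomal DNA genes after their values were seen. P-values measure the spread between samples collected independently. Summaries used pandas 2.3.3, numpy 2.4.6 and scipy 1.17.1 under Python 3.11.15, with plots from matplotlib 3.10.9.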

Additional observations from a re-analysis of the deposited data

How the results depend on the processing

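The fit was repeated under 24 alternatives, with FPKM in place of TPM, a pseudocount of 0.1 or 5 TPM, a minimum of 5 TPM or none, quantile and median-ratio scaling, other variance models, all 12 libraries in 1 fit, the replicate number as a block, stage scores as covariates, fewer genes, each library left out in turn and, chosen after seeing the data, 3 with exon length. Of 13921 genes, 0 passed. Without a filter, 6 of 28762 passed (*tab-1*, T22E5.7, 21ur-1293, 21ur-14798, F39B1.3 and F29D10.6), and with array quality weights 1 (F31C3.16). Leaving out a library gave 0 to 1 genes, Y19D2B.1 without EV replicate 3 and ZK973.22 without WL replicate 3. The cause was not tested. The other alternatives gave 0.

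The log2 fold change of *rpia-1* ran from −0.42 with FPKM, where all genes moved to a median of −0.14, to −0.18 without WL replicate 1, with an adjusted p from limma of 0.34 to 1.00. It lies outside the genes of 1000 to 2000 nt and has no value there.

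Counts at an unadjusted p under 0.05 moved with single libraries. Against 33 higher and 131 lower genes, leaving out WL replicate 3 gave 58 and 487, WL replicate 1 gave 82 and 325, WL replicate 2 gave 107 and 76, and EV replicate 3 gave 67 and 62. Array quality weights gave 703 and 496, the minimum of 5 TPM 14 and 35, and no filter 194 and 395. The share between the groups ran from 10.2% to 26.99%, the highest without WL replicate 3.

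The labels number the replicates 1 to 3 in both groups. Deviations of same-numbered libraries correlated at 0.054, 0.44 and 0.42, and those of the other pairs at −0.49 to 0.235. The labels give no pairing beyond the number, and the main fit used none. Whether same-numbered libraries shared a batch was not tested. With the number as a block, 0 genes passed and 355 had an unadjusted p under 0.05. In that fit *rpia-1* had a log2 fold change of −0.26 (standard error 0.072, unadjusted p = 0.012, adjusted p = 1.00 from limma). Not every library correlated best with its own number.

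Of 131 named genes beside *rpia-1*, 69 kept their direction under every alternative that tested them. In all, 2795 of 2945 values did. Part of this was fixed in advance. Alternatives that change only the variance model or the genes tested return the same fold change. Genes chosen for groups without overlap cannot turn when a library is left out. The counts are therefore a description and no measure of stability.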
